A study of Oryza sativa Japonica Group with 4 samples.

Results

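Heat shock transcription factors (HSFs) were followed in the endosperm of rice plants kept at control temperature or moved to high temperature. The members are the transcript models whose description in the deposited table contains the words HSF-type DNA-binding. They are 32 transcript models of 19 gene IDs, among 67393 models of 56797 gene IDs. Endosperm of the japonica cultivar Nipponbare at the grain-filling stage was sequenced as poly(A) RNA in 4 libraries, 2 for each temperature. Control plants had a 12 h day at 28°C and a 12 h night at 22°C, and treated plants were moved 5 days after pollination to a day at 35°C and a night at 28°C. Both groups were sampled 5 days after the transfer, so the comparison asks which HSF transcripts differed after days of heat and not in the first hours of it. The methods describe the sampling of fresh seeds and the extraction of RNA from endosperm. No source states whether the replicates came from separate plants, so the p-values measure the spread between these libraries, which may be technical.

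HSFs are the proteins that switch on heat shock genes. They bind as trimers to heat shock elements, short repeated motifs in the promoters of chaperone genes, through the DNA-binding domain that gave these rows their description. Plants carry a large HSF family that is sorted into classes A, B and C. Class A members are generally activators, while many class B members lack the activation motif and act as repressors or as partners of class A. The descriptions of the members give the domain and no class, and the gene IDs could not be matched to the gene symbols supplied, so the members are named by ID and no class is assigned to them.

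The libraries held 6395533 to 11492692 reads. The most abundant transcript, LOC_Os09g00999.1, and the next, LOC_Os09g01000.1, together took 8.51% and 25.9% of the reads in the controls (replicate 1, replicate 2) and 35.2% and 10.05% at high temperature. Levels are therefore given as TMM-normalized CPM, reads scaled to a common library size in a way that such transcripts do not set. Pairs of values are given in the order replicate 1, replicate 2. By read counts, each library was closer to 1 library of the other temperature than to its own replicate (values in the last paragraph). Control replicate 1 was the deepest library and the only library without NA cells in its column. Of the 20 HSF transcripts tested, 10 had their lowest level there, a count that was not made over all transcripts. Storage protein transcripts were abundant. Glutelins, the main storage proteins of the starchy endosperm, summed to 224910 to 376930 CPM. Oleosins, markers of embryo and aleurone, summed to 794 to 1288 CPM, and chlorophyll A-B binding proteins, markers of green pericarp, to 839 to 1719 CPM. Neither of these sums separated the temperatures. Late embryogenesis abundant transcripts summed to 320 and 1656 CPM in the controls and to 1249 and 456 CPM in the heat. Prolamin transcripts, also of the starchy endosperm, summed to 57257 and 116580 CPM in the controls and 36776 and 42415 in the heat. Of these, 23 of 29 were lower in both heated libraries than in both controls (17.7% of all transcripts tested). By the same measure 3 of 17 glutelin and 9 of 24 starch synthase transcripts were lower. Higher in both heated libraries were 6 starch synthase transcripts (19.1% of all transcripts tested) and 0 glutelin or prolamin transcripts. The part of these transcripts in the results below was not tested. In bulk tissue, fewer cells of a type and less RNA per cell cannot be told apart.

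HSF transcripts held few reads in this tissue, though most models were detected. Of the 32 models, 30 had reads in at least 1 library, against 44411 of all 67393 models in the table. All 4 libraries held reads for 25 of the HSF models, a count not made over all models. Together the HSF models held 674 to 1337 reads per library. On the scale of TMM-normalized CPM their sum was 88.5 and 111.6 in the controls and 120.7 and 118.8 in the heat. A single transcript, LOC_Os03g63750.1, made up 30.5% to 37.2% of that sum. Both models of LOC_Os01g43590 had 0 reads in every library, which allows up to 3 reads in each and covers counting error only.

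Levels of different genes were compared per length, as TMM-normalized RPKM (CPM divided by the transcript length in kilobases). LOC_Os03g63750.1 stood highest with a mean of 16.4 over the 4 libraries, from 14.7 to 17.5. Its lowest library lay above the highest library of every other member, the highest of these being 7.85 for LOC_Os06g35960.1 in control replicate 2. LOC_Os02g29340.1 followed with a mean of 4.82 and LOC_Os06g35960.1 with 4.35. From LOC_Os09g35790.2 (3.58) down to LOC_Os03g25120.1 (0.692) the transcripts tested formed a continuous series. Among the 30 models with reads, 29 pairs are neighbours in this order, and in 1 pair, the first and the second, the ranges over the libraries did not overlap. Apart from the first place, the order of neighbours is therefore not resolved by 4 libraries. The median of the 20 HSF transcripts tested was 2.01 on this scale, against 2.92 for all transcripts tested.

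**Figure D1:**
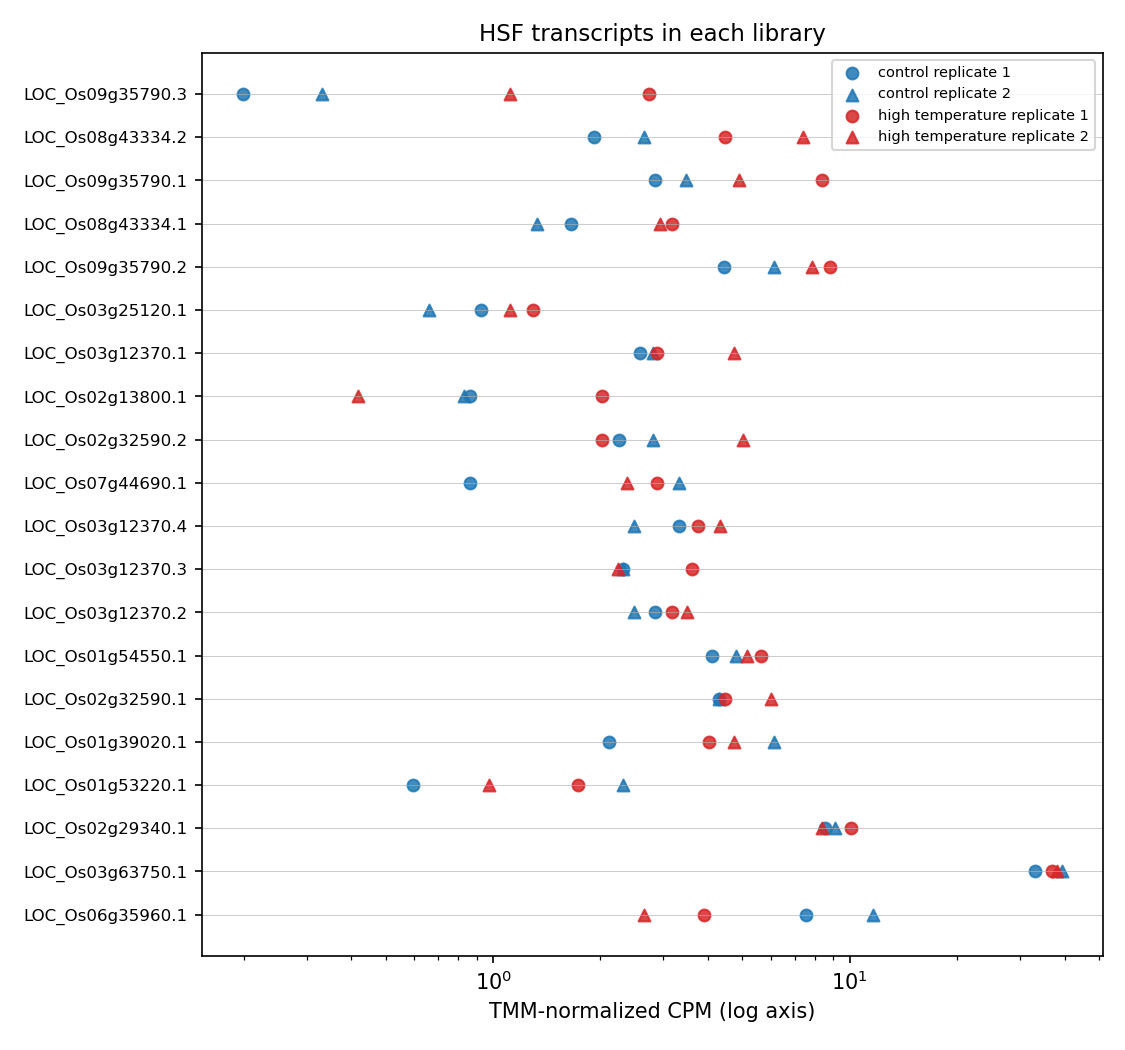
TMM-normalized CPM (log axis) of the 20 HSF transcripts tested, with 1 point per library (blue for control, red for high temperature, circles for replicate 1, triangles for replicate 2), ordered by log2 fold change. LOC_Os06g35960.1 is the only transcript with both red points left of both blue points, and in 11 transcripts both red points lie to the right.

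Temperature was tested by edgeR's quasi-likelihood test, on reads, over the 27358 transcripts that reached 1 CPM in 2 or more libraries. These included 20 HSF transcripts of 13 genes, and the other 12 models were too low to test. No HSF transcript passed an adjusted p of 0.05 (edgeR, Benjamini-Hochberg), nor did any other transcript (0%), and the lowest adjusted p of an HSF transcript was 0.478. With DESeq2 the count was 0 HSF transcripts and 58 over all transcripts. The count of HSF transcripts was 2 in edgeR without the filter on low counts (365 over all), 1 with limma on log2(RPKM + 0.1) (78 over all), and 3 with a crossed replicate block that was added after the data were seen (828 over all). At an unadjusted p under 0.05 there were 5 HSF transcripts of 3 genes. Of these, 4 transcripts of LOC_Os08g43334 and LOC_Os09g35790 were higher at high temperature, against 4.15% of all transcripts tested, and 1, LOC_Os06g35960.1, was lower, against 2.79%. In either direction the share of all transcripts was 6.94%. Among the 4 higher transcripts, LOC_Os09g35790.3 passed the filter only through the heated libraries, where it is high, so its place in this count is no support for a difference. The 4 are models of only 2 genes, and how reads in exons common to several models were divided is not stated.

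The other 15 HSF transcripts had an unadjusted p above 0.05, and 8 of them overlapped between the temperatures. The fitted log2 fold change was above 0 for 19 of the 20 (50.2% of all transcripts tested), with a median of 0.47 against 0.00 for all, and for 7 of the 19 it turned below 0 when 1 of the libraries was left out. The heated libraries both exceeded the controls for 11 of the 20, which belong to 6 genes (19.1% of all transcripts tested), and lay below them for 1 (17.7% of all). These counts describe the models that passed the filter on low counts, and a low model can pass it through the high temperature libraries alone. With the best expressed model of each gene in the fit, 13 HSF genes were tested, the median log2 fold change was 0.28 and 2 had an unadjusted p under 0.05 (6.75% of all transcripts in that fit). In the other families of transcription factors set beside them, 12 of 71 NAC transcripts lay above and 11 below, 16 of 45 bZIP transcripts above and 6 below, and 11 of 46 WRKY transcripts above and 8 below. Their median log2 fold changes were -0.01, 0.14 and 0.04. The difference between the families was not tested.

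**Figure D2:**
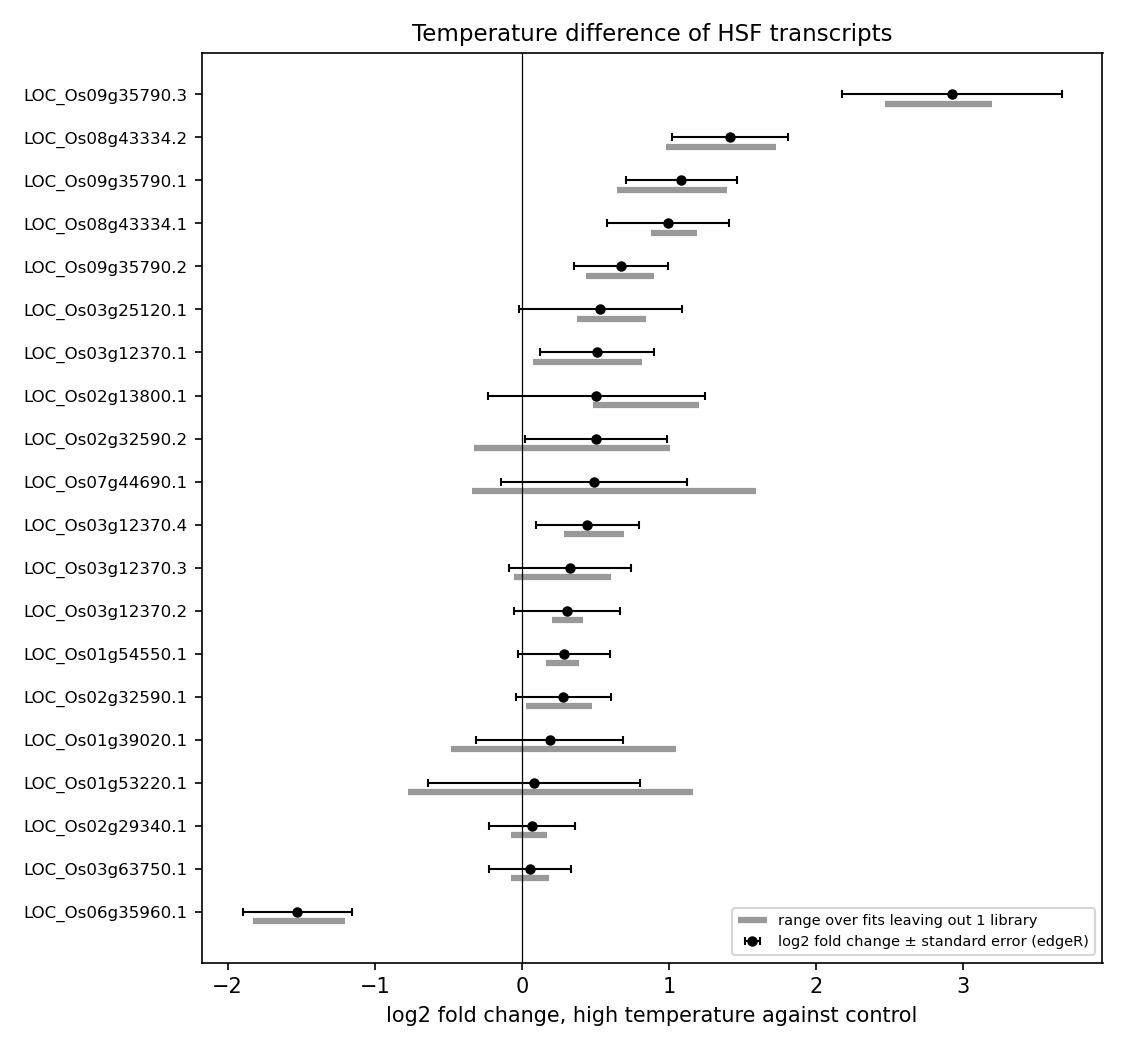
Log2 fold change of the 20 HSF transcripts tested, high temperature against control, with its standard error (black, edgeR, n = 2 libraries per temperature) and the range over the fits that each left out 1 library (grey). LOC_Os06g35960.1 lies at -1.52 and LOC_Os09g35790.3 at 2.92, and the grey range of 7 transcripts crosses 0. For LOC_Os09g35790.3 and LOC_Os02g13800.1 the grey range covers 2 fits only.

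LOC_Os06g35960.1 (1476 bases) was the HSF transcript that was lower in the heat. It had 114 and 70 reads in the controls and 27 and 19 reads in the heat. On the scale of TMM-normalized CPM these were 7.55 and 11.6 against 3.89 and 2.65. The groups did not overlap. The control mean was 9.57 ± 2.85 CPM (SD, n = 2). The mean in the heat was 3.27 ± 0.878 CPM (SD, n = 2). The log2 fold change was -1.52 with a standard error of 0.37, or 2.88-fold lower, with an adjusted p of 0.478 (edgeR, Benjamini-Hochberg). Its direction and an unadjusted p under 0.05 were kept in each of the 4 fits that left out 1 library, with log2 fold changes from -1.83 to -1.21. Without the filter on low counts its adjusted p in edgeR was 0.0142. The gene has a single transcript model in the table, so its reads were not divided among models.

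LOC_Os08g43334 has 2 transcript models, and both were higher at high temperature. The better expressed, LOC_Os08g43334.2 (1555 bases), had 29 and 16 reads in the controls and 31 and 53 reads in the heat. Scaled to the libraries, its levels were 1.92 and 2.65 CPM against 4.47 and 7.40 CPM. Both treated libraries lay above both controls, and the treated libraries differed more from each other than the controls did. Its log2 fold change was 1.42, or 2.67-fold, with a standard error of 0.39 (adjusted p = 0.567 from edgeR with Benjamini-Hochberg adjustment). LOC_Os08g43334.1 (1941 bases) had 1.66 and 1.32 CPM against 3.17 and 2.93 CPM, and again the groups did not overlap. Its fitted difference was 0.996 on the log2 scale, with a standard error of 0.41 (adjusted p = 0.716, same test). Leaving out high temperature replicate 2 took the unadjusted p of LOC_Os08g43334.2 to 0.0843, and leaving out any 1 library took that of LOC_Os08g43334.1 above 0.05. With the reads of both models summed, the gene had a log2 fold change of 1.25 (standard error 0.33) and an unadjusted p of 0.00652 in the edgeR fit on gene sums. The share of the gene's reads on LOC_Os08g43334.2 was 53.7% and 66.7% in the controls and 58.5% and 71.6% in the treated libraries, which overlap, so the balance of the models did not separate the temperatures.

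LOC_Os09g35790 has 3 models. The fitted difference was largest in the shortest, which passed the filter only through the heated libraries. The size of that difference is therefore no support for it. LOC_Os09g35790.2 (1899 bases), the best expressed, had 67 and 37 reads in the controls and 61 and 56 reads in the heat. On the CPM scale these were 4.44 and 6.12 against 8.80 and 7.82, which do not overlap. The log2 fold change of this model was 0.68 (standard error 0.32) and its unadjusted p, 0.0661 in the edgeR fit, missed 0.05. LOC_Os09g35790.1 (1780 bases) had 2.85 and 3.48 CPM against 8.37 and 4.89 CPM, or 1.08 on the log2 scale, with a standard error of 0.38 (adjusted p = 0.620, edgeR, Benjamini-Hochberg). The unadjusted p of LOC_Os09g35790.1 was 0.0921 without control replicate 1 and 0.193 without high temperature replicate 1. High temperature replicate 1 was the higher of the treated libraries in all 3 models.

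LOC_Os09g35790.3 is a model of 830 bases, the shortest of all HSF models. It had 3 and 2 reads in the controls and 19 and 8 reads in the heat. The levels were 0.199 and 0.331 CPM against 2.74 and 1.12 CPM, and it passed the filter only through the treated libraries. From the 5 and 27 reads of each group, scaled by the library sizes, the ratio was 8.10, with an exact 95% interval from 3.075 to 26.9 that covers counting error only. The fit gave 2.92 on the log2 scale with a standard error of 0.75 (adjusted p = 0.513, edgeR, Benjamini-Hochberg). Without the filter its adjusted p was 0.0166, and without either heated library it no longer reached the filter. The model took 2.65% and 3.33% of the gene's reads in the controls and 13.8% and 8.08% in the treated libraries. This share was thus higher in both treated libraries than in both controls, on 2 to 19 reads a library, and was not tested. For the 3 models summed, the gene had a log2 fold change of 0.96 (standard error 0.31, unadjusted p = 0.0171, edgeR on gene sums).

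For the 2 most abundant members the temperatures were no further apart than replicates were. LOC_Os03g63750.1 (2239 bases) had 498 and 237 reads in the controls and 255 and 273 reads in the heat. On the CPM scale these were 33.0 and 39.2 against 36.8 and 38.1. The treated libraries lay between the controls. Its log2 fold change was 0.05 with a standard error of 0.28 (edgeR), the smallest standard error among the HSF transcripts. LOC_Os02g29340.1 (1872 bases) had 8.54 and 9.10 CPM in the controls and 10.1 and 8.38 CPM in the treated libraries, which also overlap. Its log2 fold change was 0.07 (standard error 0.29). LOC_Os01g54550.1 (1953 bases) had 4.11 and 4.80 CPM against 5.63 and 5.17 CPM. The groups did not overlap there, though the log2 fold change of 0.29 was smaller than its standard error of 0.31.

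LOC_Os03g12370 and LOC_Os02g32590 have several models, all of which could be tested. The 4 models of LOC_Os03g12370 had log2 fold changes of 0.51, 0.31, 0.33 and 0.45 in the order of their numbers, each with a standard error of 0.35 to 0.41. Their reads were spread evenly, with 15.1% to 32.1% of the gene's reads on each model in any library. Summed, the gene had 11.1 and 10.1 CPM in the controls and 13.4 and 14.8 CPM in the heat. The groups did not overlap, and the log2 fold change was 0.41 (standard error 0.26, unadjusted p = 0.159, edgeR on gene sums). LOC_Os02g32590 summed to 6.56 and 7.12 CPM against 6.49 and 11.03 CPM. Only high temperature replicate 2 was higher there, and without it the log2 fold change of LOC_Os02g32590.2 turned from 0.50 to -0.33.

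In 3 further genes the controls enclosed both heated libraries, as in LOC_Os03g63750.1, but lay far apart. LOC_Os07g44690.1 had 0.861 and 3.31 CPM in the controls and 2.88 and 2.37 CPM in the heat. LOC_Os01g39020.1 had 2.12 and 6.12 CPM against 4.04 and 4.75 CPM, and LOC_Os01g53220.1 had 0.596 and 2.32 CPM against 1.73 and 0.977 CPM. In each of them control replicate 1 was the lowest library and control replicate 2 the highest. Their log2 fold changes were 0.49, 0.19 and 0.09 with all libraries, compared with -0.34, -0.48 and -0.78 without control replicate 1 and 1.59, 1.05 and 1.16 without control replicate 2. No direction can be given for these genes. The remaining genes tested were low. LOC_Os03g25120.1 had 4 to 14 reads per library and a log2 fold change of 0.53 (standard error 0.56), and LOC_Os02g13800.1 had 3 to 14 reads and 0.51 (standard error 0.74).

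LOC_Os03g53340 has 6 models, the most of any member, and none of them reached the filter on low counts. Their reads ran from 0 to 9 per library. Summed over the models, the gene had 12 and 4 reads in the controls and 18 and 30 reads in the heat. This corresponds to 0.795 and 0.662 CPM against 2.60 and 4.19 CPM, so the groups did not overlap. In the edgeR fit on gene sums the log2 fold change was 2.16 (standard error 0.50, 4.48-fold) with an unadjusted p of 0.00344 and a Benjamini-Hochberg adjusted p of 0.537. If reads in exons common to several models were counted for each model, the sum holds such reads more than once. Of the models, 3 had both treated libraries above both controls and 3 did not.

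**Figure D3:**
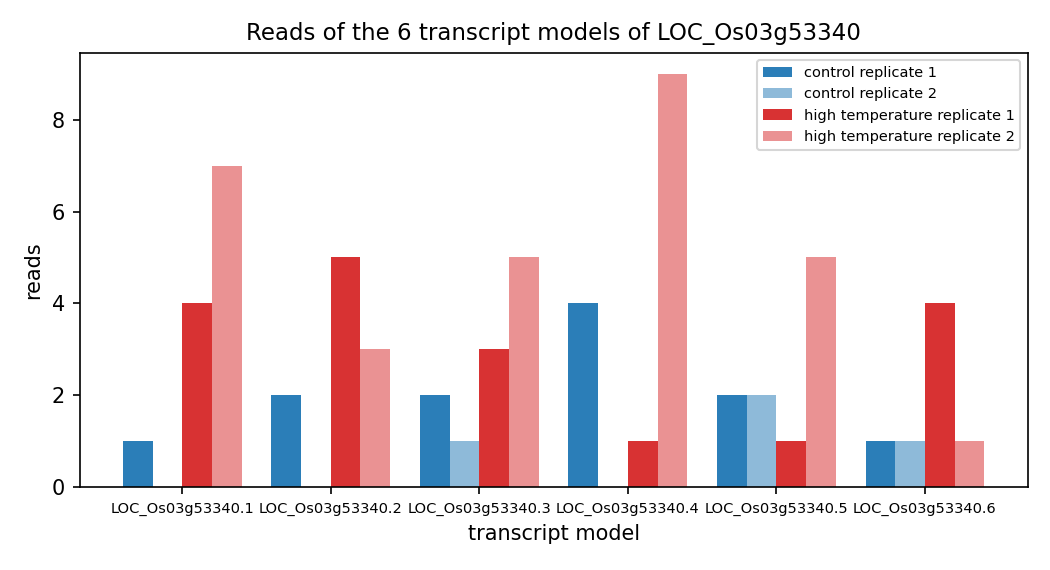
Reads (not scaled by library size) of the 6 transcript models of LOC_Os03g53340 in each library, in dark and light blue for control replicates 1 and 2 and in dark and light red for high temperature replicates 1 and 2. No bar exceeds 9 reads, and the treated libraries hold 48 of the 64 reads although they are not the deepest libraries.

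The other genes below the filter gave no usable comparison. LOC_Os09g28200.1 had 2 and 5 reads in the controls and 10 and 2 in the heat. LOC_Os08g36700.1 had 9 reads in the 4 libraries together, LOC_Os05g45410.1 had 8 and LOC_Os06g36930.1 had 4. In all 4 of these genes the temperatures overlapped. A difference in these genes was not tested, as they lay below the filter.

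The study first selected genes with stable expression by the CV, the SD divided by the mean, with 0.2 as its limit. It applied this limit in its RNA-seq and in open microarray data. Its choice then also rested on expression intensity, the number of isoforms and stability in qRT-PCR. Here only the CV over the 4 RNA-seq libraries was taken. With RPKM recomputed from the reads for all libraries, 3 of the 30 HSF transcripts with reads had a CV below 0.2 (8.83% of all transcripts with reads). They were LOC_Os03g63750.1 with 0.189, LOC_Os01g54550.1 with 0.191 and LOC_Os02g29340.1 with 0.197. The first and the last of these are the most abundant members. The median CV was 0.496 for the 30 and 0.454 for all transcripts with reads, and 0.341 for the 20 tested against 0.350 for all transcripts tested. LOC_Os09g35790.3 had the highest CV of those tested, 0.987, followed by LOC_Os08g43334.2 with 0.681. On the scale of TMM-normalized CPM, 5 of the 20 tested were below 0.2 (33.1% of all transcripts tested), and the CV of LOC_Os03g63750.1 was 0.0740 and that of LOC_Os02g29340.1 was 0.0860. In the deposited RPKM columns the CV of LOC_Os03g63750.1 was 1.13, where the values of control replicate 1 are reads multiplied by length and divided by the library total.

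**Figure D4:**
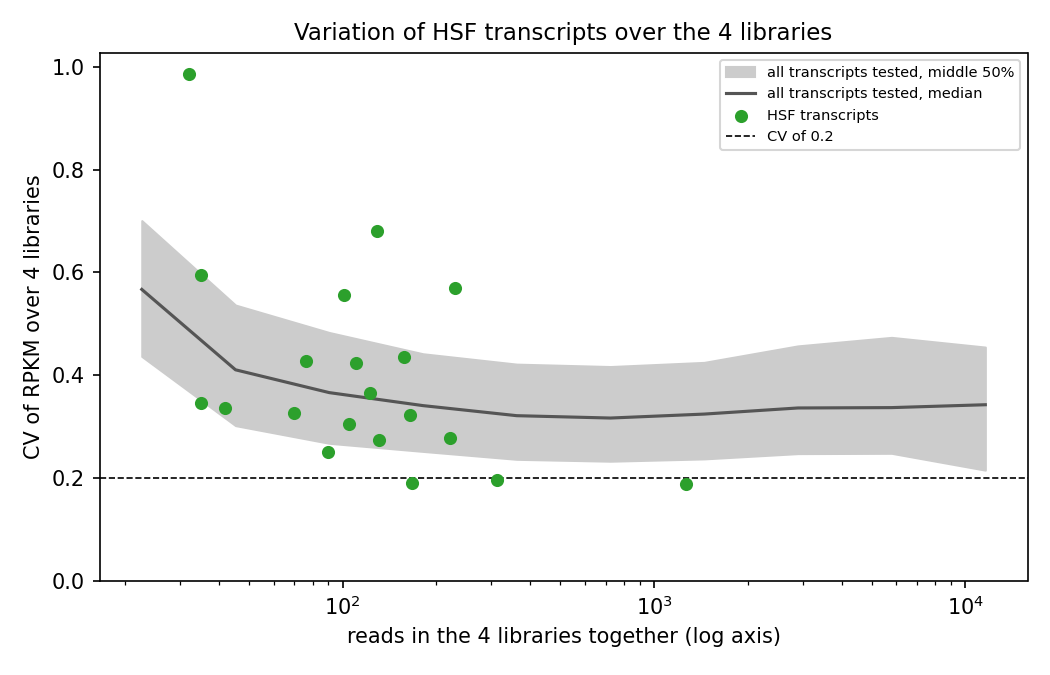
CV of the recomputed RPKM over the 4 libraries against the reads of a transcript in the 4 libraries together (log axis), for the 20 HSF transcripts tested (green) and for all transcripts tested (line for the median, grey for the middle 50%). The 3 HSF transcripts below the dashed line at 0.2 have 167 reads or more, and the highest point, at 0.987, is LOC_Os09g35790.3 with 32 reads.

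Other rows of the table name heat factors in different words, and they were found after the descriptions had been seen. There are 12 such rows of 7 genes, described as heat stress transcription factor or heat shock factor, and 9 of them could be tested. A single one, LOC_Os10g28340.2, had an unadjusted p under 0.05 and was higher (4.15% of all transcripts tested). Its levels were 3.91 and 2.15 CPM in the controls and 6.92 and 6.98 CPM in the heat, a log2 difference of 1.13 with a standard error of 0.36 (adjusted p = 0.599, edgeR, Benjamini-Hochberg). The median of the 9 was 0.67, and the log2 fold change was above 0 in 8 of them (50.2% of all transcripts tested). Both heated libraries exceeded both controls in 4 of the 9 (19.1% of all) and lay below them in 1 (17.7% of all). Of the 9, 4 are models of LOC_Os10g28340, so they are not separate observations. LOC_Os04g48030.1, whose description names it B-1, a class B factor, had 2.98 and 3.48 CPM against 5.77 and 4.33 CPM, and a log2 difference of 0.66 (standard error 0.34). None of the 9 passed the adjusted threshold.

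Partners and targets of the HSFs were read from the same fit. Heat shock factor binding proteins bind the trimer and dampen HSF activity in Arabidopsis and animals. All 6 transcripts of the 2 genes so described could be tested, and none had an unadjusted p under 0.05. Their log2 fold changes were below 0 in all 6 (49.8% of all transcripts tested), with a median of -0.39. All of the 6 but LOC_Os06g16270.1 are models of 1 gene, LOC_Os09g20830, so they are not separate observations. Control replicate 1 was the highest library for each of the 6. The 6 summed to 47.9 CPM there, against 24.3 in control replicate 2 and 22.1 and 33.9 in the heat. The small heat shock proteins of the hsp20 family are chaperones and classic targets of HSFs. Of the 34 rows of this family 17 could be tested. Among the 17, 14 were higher at an unadjusted p under 0.05 (4.15% of all transcripts tested) and none was lower. The median log2 fold change of the 17 was 3.10. LOC_Os11g13980.1 and LOC_Os06g14240.1 passed the filter only through the heated libraries, where they are high. Their place in this count and in the median is therefore no support for a difference. The largest fitted difference in this list was that of LOC_Os11g13980.1, from 0.132 and 0.166 CPM in the controls to 51.6 and 5.72 CPM in the treated libraries, on 2 and 1 control reads. It was followed by LOC_Os04g36750.1, from 3.71 and 5.30 CPM to 162 and 44.8 CPM. At the same threshold, 4.15% of all transcripts tested were higher and 2.79% lower, shares that stand beside each count below. For DnaK, the hsp70 chaperones, 8 of 31 transcripts were higher and 1 lower at this threshold, with a median of 0.34. For DnaJ, their co-chaperones, 16 of 124 were higher and 2 lower, with a median of 0.11. The rows described as heat shock protein, which include many DnaJ rows, had 25 of 96 higher and 2 lower. Of 2 clpB transcripts 1 was higher, and the single hsp90 row was not called. That hsp90 row was near the filter of 1 CPM, with 0.927 and 0.993 CPM in the controls and 1.15 and 1.12 CPM in the heat. No row was described as multiprotein-bridging factor or galactinol synthase. No transcript of these lists passed the adjusted threshold in this fit, where the lowest adjusted p, 0.119 (edgeR, Benjamini-Hochberg), included hsp20 transcripts.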

How the data were processed

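Groups and replicates follow the labels. The deposited table holds raw read counts for each transcript model (unique reads on exons, per the methods) and values that the authors headed RPKM. The aligner, genome build and annotation are not given in the sources used here. In 3 libraries the deposited RPKM equalled reads divided by length and library total. In control replicate 1 the deposited values form a score, reads multiplied by length and divided by the library total, so RPKM was recomputed. NA cells were read as 0, and the number of unused columns of values was 0.

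Counts were fitted with edgeR 4.0.16 in R 4.3.3 (TMM, quasi-likelihood test, no replicate block, at least 1 CPM in at least 2 libraries, Benjamini-Hochberg over all transcripts tested). Standard errors were obtained from each log2 fold change and its F statistic (absolute value over the root of F). Where leaving out a library left 1 in a group, that library was assumed to vary like the other group. Alternatives used DESeq2 1.42.0 and limma 3.58.1, and summaries Python 3.11.15 with pandas 2.3.3 and scipy 1.17.1. The scripts were tested on simulated data with 1 dispersion for all transcripts and changes only in the better covered ones. That test does not cover transcripts with as few reads as most HSF members. Every HSF gene with a transcript past the filter was named, by its best expressed model and with its other models; genes below the filter are named with their reads. The members, the lists of description words and the tests were chosen with earlier results of these data known. The table gives no coordinates and no sequence, and 0 of the gene IDs matched the RefSeq gene table supplied.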

Additional observations from a re-analysis of the deposited data

How the results depend on the processing

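The direction of 13 of the 20 HSF transcripts tested was the same under every alternative that gave a value. Among these were LOC_Os06g35960.1 and all models of LOC_Os08g43334 and LOC_Os09g35790. For LOC_Os09g35790.3 and LOC_Os02g13800.1 only 2 of the 4 fits that left out 1 library gave a value. LOC_Os09g35790.3 fell below the filter without either heated library, so those fits could not turn its direction. The causes of the shifts were not tested. The number of HSF transcripts with an adjusted p under 0.05, 0 in edgeR, was 2 without the filter on low counts (LOC_Os06g35960.1 and LOC_Os09g35790.3; 365 over all transcripts) and 1 with limma on log2(RPKM + 0.1) (78 over all). It was 0 with the other planned settings, while the count over all transcripts was 33 with column totals in place of TMM, 58 with DESeq2, 59 with limma on log2(RPKM + 1), and 0 to 345 over the fits that left out 1 library (345 without control replicate 2, 42 without control replicate 1). The number with an unadjusted p under 0.05, 5 in edgeR, was 2 at 5 CPM and with 1 transcript per gene, 3 with column totals, with DESeq2 and with both limma fits, and 2 to 7 when 1 library was left out (2 without either high temperature library, 3 without control replicate 1, 7 without control replicate 2). The median log2 fold change, 0.47, was 0.28 at 5 CPM, 0.37 with column totals, 0.21 and 0.32 with limma at pseudocounts of 1 and 0.1, 0.28 with 1 transcript per gene, 0.38 summed per gene, and 0.32 to 0.52 when 1 library was left out. The median of all transcripts stayed within 0.05 of 0 in each of these fits.

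With a replicate block the HSF median was 0.40 and no transcript passed the adjusted threshold. Same-numbered libraries deviated in opposite directions (correlation across transcripts -0.364, which are not independent), so the crossed pairing was added after the data were seen: it called 3 HSF transcripts among 828 and gave an HSF median of 0.39. Chi-square per degree of freedom between read counts was 17.7 for control replicate 1 with high temperature replicate 2. For control replicate 2 with high temperature replicate 1 it was 24.4. Between the controls it was 68.5, between the heated libraries 58, and for the same-numbered pairs 97.7 and 46. Libraries were thus most alike across the temperatures, and the cause was not tested. Leaving the 2 most abundant transcripts out of the fit, also added, called 0 transcripts. Directions turned for LOC_Os01g53220.1 with DESeq2 (-0.045). When 1 library was left out, log2 fold changes ran from -0.48 to 1.05 for LOC_Os01g39020.1, -0.78 to 1.16 for LOC_Os01g53220.1, -0.074 to 0.17 for LOC_Os02g29340.1, -0.33 to 1.01 for LOC_Os02g32590.2, -0.054 to 0.61 for LOC_Os03g12370.3, -0.072 to 0.18 for LOC_Os03g63750.1 and -0.34 to 1.59 for LOC_Os07g44690.1. The number of HSF transcripts with a CV below 0.2, 3 of 30, was 1 in the deposited RPKM columns, 5 with TMM-normalized CPM and 0 to 7 when 1 library was left out (0 without high temperature replicate 1, 1 without high temperature replicate 2, 7 without control replicate 2). With 2 libraries per temperature and a median of 116 reads per HSF transcript tested, the number of libraries and the depth limit each difference.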
